A study of Homo sapiens with 4 samples.

Results

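The difference between 2 hypoxia responses was measured by RNA-Seq in FADU, an established human hypopharyngeal squamous carcinoma line. Cells infected with a lentiviral hairpin against TET1 (TET1-si) or with a scrambled hairpin were kept in normoxia, with 5% CO2, or exposed for 19 h to 1% O2 and 5% CO2. This gave 4 groups of 1 library each, scrambled normoxia (N-scr), scrambled hypoxia (H-scr), TET1-si normoxia (N-si) and TET1-si hypoxia (H-si). The response to hypoxia was the log2 ratio of hypoxia over normoxia within a knockdown state, on log2(FPKM + 0.1), where FPKM is fragments per kilobase of transcript scaled to the mapped reads of the library. Levels given as 4 values follow the order N-scr, H-scr, N-si, H-si. The difference D was the response in TET1-si cells minus the response in scrambled cells. A negative D of a gene that hypoxia raised means a smaller rise after TET1 knockdown, and a negative D of a gene that hypoxia lowered means a deeper fall. Of 62077 rows in the table, 61845 carried a gene ID found on 1 row only, 49746 of these had a locus of at least 300 bp, and 14585 also had a mean of at least 1 FPKM over the 4 libraries. These 14585 genes, 11901 of them protein-coding, are the ones described.

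Cells that lack oxygen stabilise hypoxia-inducible factors (HIFs), transcription factors that bind a short core motif and raise genes for glucose use, oxygen sensing, vessel growth and mitochondrial turnover. The same stress lowers costly programmes such as ribosome assembly and DNA replication. TET1 is a dioxygenase that oxidises 5-methylcytosine in DNA to 5-hydroxymethylcytosine and can also act as a transcriptional coactivator. The comparison addressed which parts of the hypoxia response differed when TET1 was knocked down. With 1 library in each group no test of any difference was possible, so every value of D is a description of these 4 libraries. The values depend on 1 hairpin, in infected cells, and differences between the knockdown states cannot be told apart from differences between the infected cultures.

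Every value of D rests on the TET1 hairpin, so the target that the study lists for it is shown. The sources used here do not state separately that these 4 libraries used this hairpin. Its 21-base target lies in exon 12 of 12 of TET1 on the plus strand, at chr10:70451833-70451853 (hg19), outside the coding sequence and after it.
TET1 hairpin target: ccttgatagaatcactcagtt

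TET1 itself was listed at 0.129, 0.331, 0.0493 and 0.122 FPKM, which correspond to about 28, 76, 11 and 26 reads. It was 2.63-fold lower in TET1-si than in scrambled cells in normoxia and 2.71-fold lower in hypoxia. Hypoxia raised it 2.56-fold in scrambled and 2.48-fold in TET1-si cells, so the ratio between hypoxia and normoxia was nearly the same in both states. Without a pseudocount its D was -0.05, with a 95% counting interval of -1.23 to 1.14. TET1 was below the minimum of 1 FPKM and was not among the 14585 genes.

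Promoter stretches are shown for genes on which the results turn, since they hold motifs that are counted by class and list further below. Binding of any factor was not measured. They were cut from RefSeq promoters (GRCh38.p14, 250 bases before to 50 bases after the gene start), and each run is 30 bases, written in the direction of the gene. In the first 3 the capitals mark the interferon-stimulated response element (a pair of GAAA blocks 2 bases apart), which interferon-activated factors bind. OAS3 is at chr12:112938321-112938350, MX1 at chr21:41420559-41420588 and IFITM1 at chr11:314024-314053.
OAS3: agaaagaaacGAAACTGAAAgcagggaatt
MX1: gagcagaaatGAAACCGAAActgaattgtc
IFITM1: acacttctgaGAAACTGAAAcgacagggga
In the next 3 the capitals mark the E2F form TTTGGCGC, bound by the factors that drive S-phase genes. CDC6 is at chr17:40287875-40287904, E2F1 at chr20:33686387-33686416 and MCM6 at chr2:135876577-135876606.
CDC6: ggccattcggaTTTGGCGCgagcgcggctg
E2F1: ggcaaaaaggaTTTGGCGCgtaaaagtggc
MCM6: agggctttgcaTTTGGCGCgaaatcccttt
In a further pair the capitals mark the sterol element CACNCCAC read on the other strand, a form that sterol-regulated factors bind. INSIG1 is at chr7:155297659-155297688 and SCD at chr10:100347108-100347137.
INSIG1: gcgggccggcgGTGGCGTGtgcgcacgtca
SCD: gcagaggccggGTGGTGTGgtgtcggtgtc
In the last 3 the capitals mark a HIF core, ACGTG or its reverse complement. CA9 is at chr9:35673898-35673927, PGK1 at chrX:78104034-78104063 and EGLN1 at chr1:231422283-231422312.
CA9: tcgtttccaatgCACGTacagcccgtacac
PGK1: gcggcgtgccggACGTGacaaacggaagcc
EGLN1: gggccgtggtgtACGTGcagagcgcgcaga

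The depth recovered from the values of 1-exon genes was 22920000 to 24520000 reads a library. All 17 squamous epithelial markers passed the minimum of 1 FPKM, and their summed level was 8496 and 11866 FPKM in scrambled normoxia and hypoxia, and 3195 and 6033 FPKM after knockdown. Of the other cell types, 1 of 8 fibroblast markers (COL1A1), 2 of 8 leukocyte markers (CD14 and CD68) and 2 of 6 endothelial markers (VWF and CDH5) passed. Their sums ranged from 5.30 to 37.2 FPKM for fibroblasts, from 22.6 to 30.4 for leukocytes and from 9.30 to 48.7 for endothelial cells. The defining genes PDGFRA and COL1A2 (fibroblast) and CD3E (leukocyte) were listed at 0 in all 4 libraries. The part of any of these sums in D was not tested. Fewer cells of a kind and less RNA per cell cannot be told apart in such bulk samples.

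Most of the hypoxia response was similar in both states, and the differences leaned to lower values after TET1 knockdown. The median D over the 14585 genes was -0.06, and the middle 90% of genes lay between -1.19 and 0.89. D was below 0 in 8124 genes (55.7%), at -1 or lower in 1025 (7.03%), at 1 or higher in 558 (3.83%), and under 0.5 in size in 9955 (68.3%). The hypoxia response itself was at 1 or higher in 1824 genes (12.5%) before TET1 knockdown, in the scrambled state, and in 1740 (11.9%) after it. It was at -1 or lower in 562 (3.85%) and in 1195 (8.19%), respectively. More genes therefore lost at least 2-fold in hypoxia when TET1 was knocked down.

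Genes were sorted by the average of their 2 responses, so that neither knockdown state alone chose them. An average of 1 or more made a gene hypoxia-induced, which held for 1639 genes (11.2%), and an average of -1 or less made it hypoxia-repressed, which held for 777 (5.33%). A response was called weakened where D was 1 or more in size towards 0, strengthened where it was 1 or more away from 0, and kept where D was under 0.5 in size. Among induced genes 308 (18.8%) were weakened, 737 (45%) kept and 177 (10.8%) strengthened, and 417 (25.4%) lay between. Among repressed genes 21 (2.7%) were weakened, 301 (38.7%) kept and 214 (27.5%) strengthened, and 241 (31%) lay between. Induction thus went both ways, with a median D of -0.09 over induced genes, while repression was mostly deeper, with a median of -0.58 and 628 of 777 repressed genes (80.8%) below 0. The split depends on how responsive genes are chosen. By the scrambled response alone, 527 induced genes were weakened and 59 strengthened, and 90 repressed genes were weakened and 31 strengthened. By the TET1-si response alone the same counts were 125, 360, 3 and 376, so the balance turned with the choice.

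**Figure D1:**
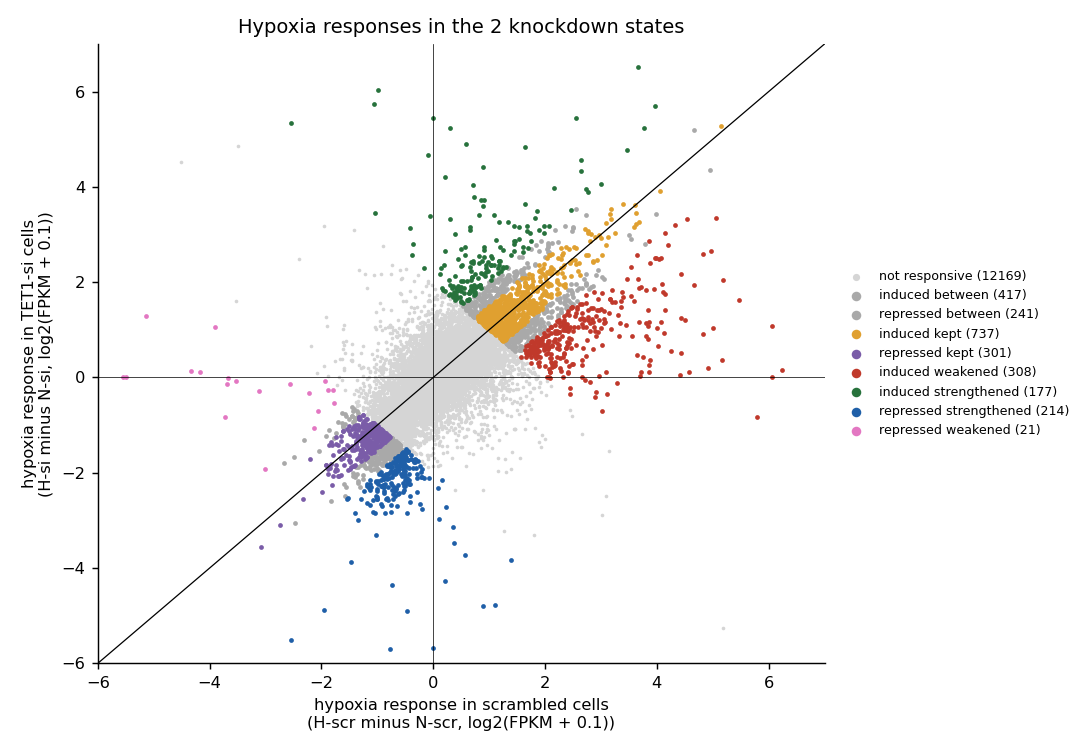
Hypoxia response of each of the 14585 genes in scrambled cells (x axis) and TET1-si cells (y axis), both as log2 ratios of FPKM + 0.1, coloured by class, with the line of equal responses; 7 genes lie outside the axes. The 308 weakened induced genes spread below the line on the right, and the 214 strengthened repressed genes lie below it on the left.

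A large D was more frequent where few reads were counted. Of 633 genes with under 10 reads in their lowest library, 25.1% had a D of -1 or lower and 19.3% a D of 1 or higher. With at least 1000 reads in every library (5470 genes) these shares were 2.67% and 0.512%. A 95% interval for counting error alone could be set for 13750 genes and lay wholly below 0 in 4988 and wholly above 0 in 3443. Such intervals do not hold the spread between cultures.

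D is also the difference between the effect of TET1-si in hypoxia and its effect in normoxia, so a gene can have the same D because its hypoxic or its normoxic level differed. Over all genes the effect of TET1-si was at -1 or lower in 7.84% and at 1 or higher in 11.5% in hypoxia, and in 4.81% and 11.8% in normoxia. A level was counted where it differed at least 2-fold in the direction that gives D its sign. A single level counted as the only one can therefore stand beside a 2-fold difference of the other level against that direction. The repressed gene PCOLCE2 is such a case, with a TET1-si effect of -1.37 in normoxia and -3.80 in hypoxia. Of the 308 weakened induced genes, 103 were counted for the hypoxic level only, being lower in H-si than in H-scr. In 165 it was the normoxic level only, being higher in N-si than in N-scr, in 14 both levels did so, and in 26 neither did. The 177 strengthened induced genes split into 89 by a higher hypoxic level only, 54 by a lower normoxic level only, 8 by both and 26 by neither. The 214 strengthened repressed genes were different in make-up, with 149 by a lower hypoxic level only, 18 by a higher normoxic level only, 1 by both and 46 by neither. Among the 109 weakened induced genes that were protein-coding with a mean of at least 5 FPKM, the hypoxic level only and the normoxic level only came to 49 each, so the larger number for the normoxic level lay in low or non-coding genes. Deeper repression came mostly with a lower level in hypoxia, at this minimum too (118 by the hypoxic and 4 by the normoxic level of 162).

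**Figure D2:**
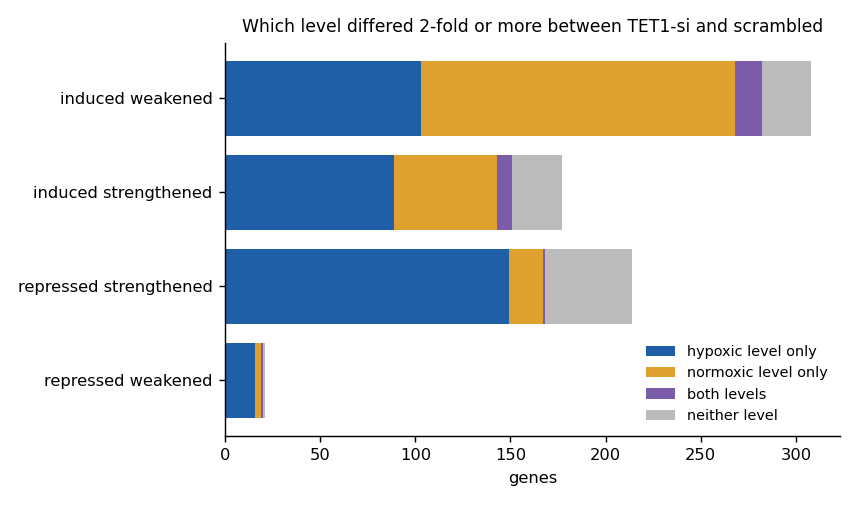
Number of genes (x axis) in each class of altered response (y axis), divided by which level differed at least 2-fold between TET1-si and scrambled cells (hypoxic, normoxic, both or neither). A level is counted only in the direction that gives D its sign, and a 2-fold difference the other way is not counted. The normoxic level alone was counted for 165 of 308 weakened induced genes and the hypoxic level alone for 149 of 214 strengthened repressed genes.

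Function was described with 36 gene lists holding 782 genes, of which 716 passed the rule, 62 had a mean under 1 FPKM and 4 symbols were not on a row. The median responses of the lists separated into those with distinctly smaller induction in TET1-si cells, those with deeper repression, and a larger number with nearly the same response in both states.

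**Figure D3:**
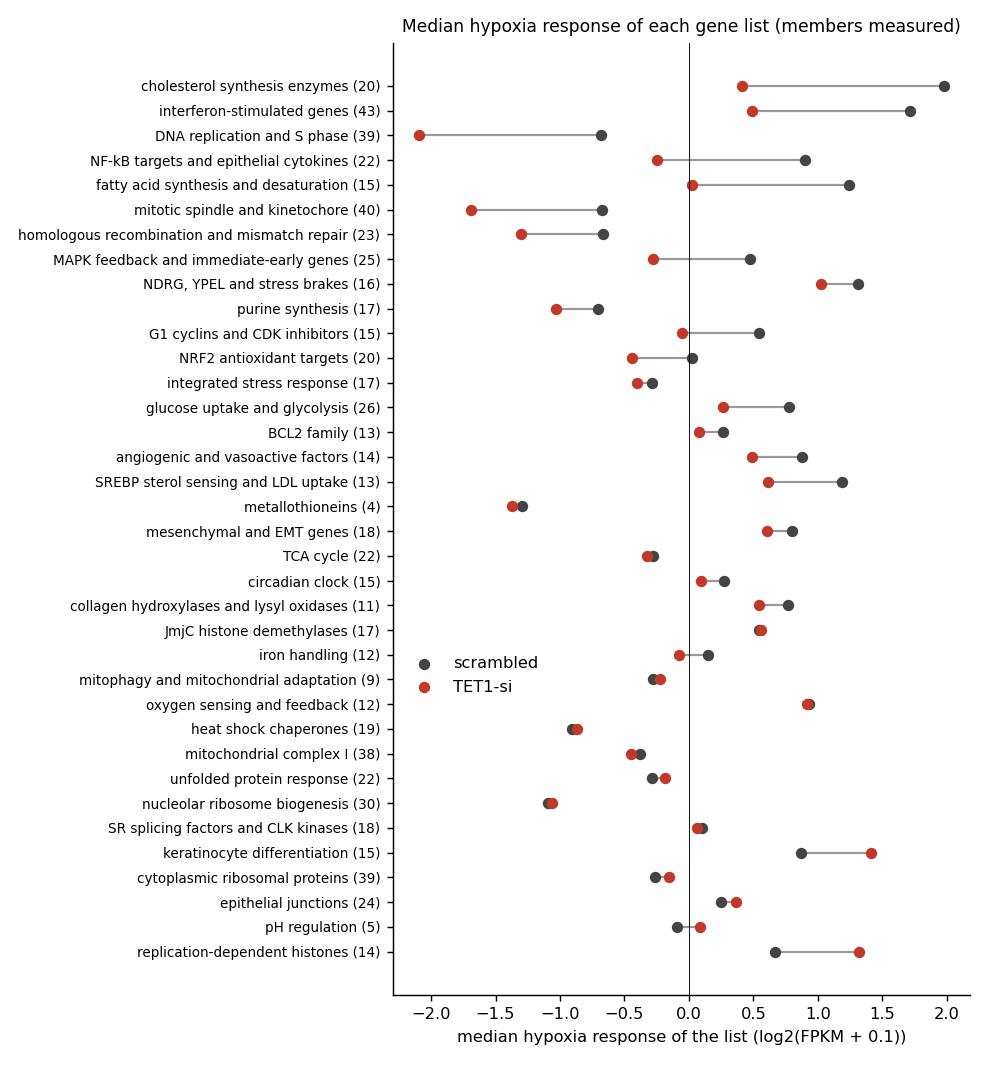
Median hypoxia response of each of the 36 gene lists (x axis, log2) in scrambled (grey) and TET1-si (red) cells, ordered by the median D, with the number of members measured in brackets. Cholesterol synthesis enzymes moved from 1.98 to 0.41 and replication genes from -0.68 to -2.09, while nucleolar genes were at -1.09 and -1.06.

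Sterol synthesis showed the most negative median D of all 36 lists. Among 20 cholesterol synthesis enzymes the median response was 1.98 in scrambled and 0.41 in TET1-si cells, and the median D was -1.84, against -0.06 over all genes. D was below 0 in 20 of 20 and at -1 or lower in 17 of 20, and 13 of the 14 induced enzymes were weakened. In 19 of 20 the scrambled response was at 1 or higher, compared with 2 of 20 in TET1-si cells. ACAT2, which makes acetoacetyl-CoA at the head of the pathway, had the lowest D of the list. Its level was 12.2 and 92.1 FPKM in scrambled normoxia and hypoxia, and 13.8 and 11.1 FPKM after knockdown, so that the high library was H-scr alone and D was -3.22. HMGCS1, the next enzyme, was at 70.8, 356, 61.9 and 83.3 FPKM, with a D of -1.90. FDPS (chr1:155278539-155290457, hg19), which makes farnesyl diphosphate, was at 154, 623, 125 and 97.5 FPKM. Its 4.04-fold rise in scrambled cells was absent from TET1-si cells, where hypoxia over normoxia was 0.779 (D of -2.37, counting interval -2.46 to -2.29). SQLE, the squalene epoxidase, was at 141, 516, 83.3 and 131 FPKM, a rise of 3.64-fold and 1.58-fold (D of -1.21). LSS, which closes the sterol ring, rose 13.2-fold in scrambled and 3.71-fold in TET1-si cells. PMVK, a mevalonate-pathway kinase, had the highest D of the list at -0.28, and it was also the enzyme that hypoxia hardly moved, at 6, 7.47, 16.7 and 17.1 FPKM.

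The sterol-sensing machinery was split by function. INSIG1 (chr7:155089486-155101945, hg19), the membrane protein that holds the SREBP complex in the endoplasmic reticulum, was at 23.7, 172, 14.7 and 40.7 FPKM. It rose 7.24-fold in scrambled and 2.75-fold in TET1-si cells, with a D of -1.40 and a counting interval of -1.53 to -1.26. Hypoxia still raised it in TET1-si cells, to a level between the normoxic and the hypoxic scrambled libraries. STARD4 and NPC1, which move cholesterol inside the cell, had a D of -1.25 and -1. The processing proteins MBTPS1, MBTPS2 and SCAP stood on the other side of 0, at 0.24, 0.37 and 0.42. Over the 13 members the median D was -0.37, with 5 at -1 or lower and 7 under 0.5 in size. APOC1, a lipoprotein component, was at 5.09, 13.9, 1.36 and 1.84 FPKM with a D of -1.02, but its few reads left a counting interval of -2.33 to 0.31.

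Fatty acid synthesis went with the sterol enzymes. Its 15 members had a median response of 1.24 in scrambled and 0.03 in TET1-si cells and a median D of -1.13, with 15 of 15 below 0 and 9 at -1 or lower. ACSS2 (chr20:33459949-33515769, hg19), which activates acetate to acetyl-CoA, had the most negative D of all weakened induced genes chosen by the naming rule. It was at 10.0, 286, 28.2 and 53.5 FPKM, a rise of 28.3-fold against 1.89-fold (D of -3.90, counting interval -4.06 to -3.77). ACLY, which makes cytosolic acetyl-CoA from citrate, was at 74.9, 251, 87.7 and 55.1 FPKM (D of -2.41). FASN, the synthase, was at 139, 357, 220 and 238 FPKM (D of -1.25), so its normoxic level was higher and its hypoxic level lower after knockdown. SCD, the main desaturase, rose 6.36-fold in scrambled cells and 2.91-fold from a low start in TET1-si cells, at 79.5, 506, 14.4 and 42.2 FPKM (D of -1.13). LPIN1 and FADS2 had a D of -2.94 and -2.10. ELOVL6, an elongase, had the highest D at -0.28.

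Most lipid genes with a low D had a lower hypoxic level. Of the 17 cholesterol enzymes with a D of -1 or lower, 16 were at least 2-fold lower in H-si than in H-scr without a 2-fold higher normoxic level. The remaining 1 had both differences. For fatty acid genes this held for 7 of 9, with 1 having both differences and 1 neither. Some were lower in normoxia too. After knockdown the normoxic level was at least 2-fold lower in 3 of 15 fatty acid genes, SCD among them, and in 1 of 20 cholesterol enzymes. The median TET1-si effect on the cholesterol enzymes was -0.46 in normoxia and -2.12 in hypoxia.

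**Figure D4:**
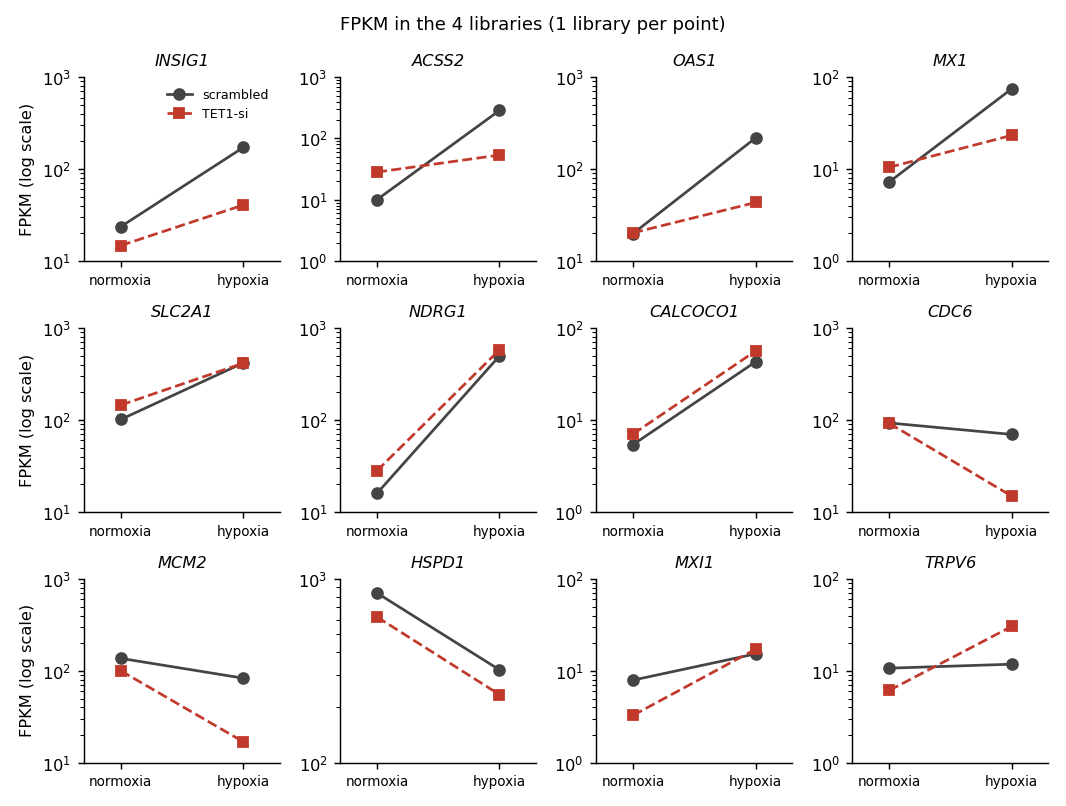
FPKM on a log axis (y axis) in normoxia and hypoxia (x axis) for 12 genes in scrambled (grey circles) and TET1-si (red squares) cells, 1 library a point. INSIG1, ACSS2, OAS1 and MX1 separate in hypoxia, SLC2A1 meets at the same hypoxic level, CALCOCO1 and HSPD1 run parallel, and CDC6 and MCM2 drop further in TET1-si cells.

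Interferon-stimulated genes, the antiviral set switched on by interferon signalling, were the other large weakened group. Their 43 members had a median response of 1.72 in scrambled and 0.49 in TET1-si cells and a median D of -1.48. D was below 0 in 42 of 43 and at -1 or lower in 27 of 43, and 16 of 20 induced members were weakened, while 1 was kept. The scrambled response was at 1 or higher in 36 members and the TET1-si response in 13. OAS1, which makes the second messenger that activates RNase L, was at 19.9, 218, 20.3 and 43.3 FPKM, a rise of 10.9-fold against 2.13-fold (D of -2.35). MX1, a GTPase that blocks viral replication, was at 7.24, 74.6, 10.5 and 23.3 FPKM (D of -2.20), and MX2, its relative, at 0.486, 12.5, 3.29 and 7.91 FPKM (D of -3.18). OAS1 started level in normoxia in the 2 states and parted in hypoxia.

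IRF9, a DNA-binding factor of the interferon signal, was the exception in the list. It was at 75.2, 245, 33.6 and 115 FPKM, which is 3.26-fold in scrambled and 3.40-fold in TET1-si cells (D of 0.06), so both its levels were lower after knockdown and its response was the same. BST2, which tethers virus particles, showed a different route, at 10.1, 33.5, 140 and 142 FPKM (D of -1.70). Here both TET1-si libraries lay above both scrambled ones, and no rise with hypoxia was left. Of the 27 members with a D of -1 or lower, 17 had a 2-fold lower hypoxic level without a 2-fold higher normoxic one. In 6, BST2 among them, the normoxic level was 2-fold higher without a 2-fold lower hypoxic one. Both held for 1 and neither for 3. Differences the other way were not counted in this split, and 4 of the 43 members were at least 2-fold lower in normoxia after knockdown.

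NF-kB targets and epithelial cytokines, the inflammatory set, had a median response of 0.90 in scrambled and -0.25 in TET1-si cells. D was below 0 in 22 of 22, at -1 or lower in 13, and -1.34 in the median, a value that moved to -0.79 when a mean of at least 5 FPKM was asked for. TNFAIP3, a feedback inhibitor of NF-kB, was at 49.7, 96.7, 12.2 and 5.76 FPKM (D of -2.03). IL8, a neutrophil chemokine counted with the vessel factors, was at 17.0, 41.8, 2.74 and 1.17 FPKM (D of -2.46). Both were low in the TET1-si libraries already in normoxia, and hypoxia over normoxia was above 1 in one state and below 1 in the other. RELA, the NF-kB subunit itself, had a D of -0.37 at 136, 155, 141 and 124 FPKM. The median TET1-si effect on the list was -0.88 in normoxia and -1.89 in hypoxia. CXCL10 was listed at 0 in H-si and at 6.82 FPKM in H-scr, so no fold is given for its TET1-si response.

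Growth factor feedback leaned the same way. Among 25 immediate-early and MAPK feedback genes the median D was -0.79, with 23 below 0 and 9 at -1 or lower. DUSP6, a phosphatase that switches off ERK, was at 7, 19.3, 10.3 and 4.8 FPKM (D of -2.54), and ETV5, an ERK-driven transcription factor, at 2.93, 5.51, 16.1 and 3.06 FPKM (D of -3.25). JUN was at 13.1, 27.1, 20.4 and 16.8 FPKM (D of -1.33), whereas JUNB and IER2 had a D of -0.03 and -0.05. N-si was above N-scr in 19 of 25 members. All genes leaned the same way, with a median TET1-si effect in normoxia of 0.16, against 0.57 for the list.

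**Figure D5:**
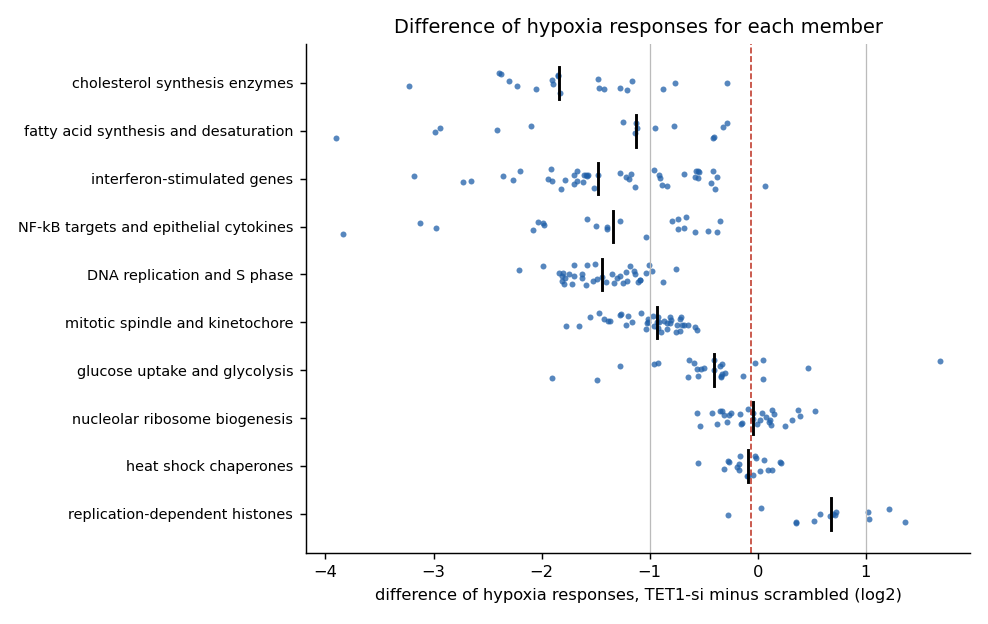
D of each member (points, x axis, log2) in 10 of the gene lists (y axis), with the median of the list as a black bar, the median of all genes as a dashed line and 2-fold differences as grey lines; points are shifted vertically for clarity. The lipid, interferon, NF-kB and replication lists lie almost wholly left of the dashed line, nucleolar and heat shock genes straddle it, and 13 of 14 histone genes lie right of 0.

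The HIF-type response was mixed, and a small D was less frequent in it than among all genes. In 8 lists of hypoxia targets (glucose use, oxygen sensing, pH, mitophagy, growth brakes, vessel factors, collagen hydroxylases and JmjC demethylases) 110 genes were measured, with a median response of 0.73 in scrambled and 0.49 in TET1-si cells and a median D of -0.28. D was below 0 in 80 of 110, against 55.7% of all genes. It was under 0.5 in size in 65, at -1 or lower in 12 and at 1 or higher in 4, against 68.3%, 7.03% and 3.83% of all genes. Of their 37 induced members 8 were weakened, 12 kept and 3 strengthened, against 18.8%, 45% and 10.8% of all induced genes. In contrast to the lipid enzymes, 8 of the 12 members with a D of -1 or lower had a normoxic level at least 2-fold higher in N-si, and 4 had a lower hypoxic level. CA9 is counted among these 4 and among the weakened members. It was not detected in N-si, so its D rests on the pseudocount.

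Glucose uptake and glycolysis showed this mixture. Its 26 members had a median response of 0.78 and 0.26 and a median D of -0.41, with 22 below 0 but only 3 at -1 or lower. SLC2A1, the main glucose transporter, was at 101, 418, 145 and 415 FPKM, so the hypoxic levels were alike and the D of -0.53 came from the normoxic ones. SLC16A3, which exports lactate, was at 29.9, 139, 144 and 276 FPKM (D of -1.27), with N-si already at the level of H-scr. ENO2, an enolase, was at 10.7, 48.6, 26.9 and 32.5 FPKM (D of -1.90). ALDOC, an aldolase, was the member with a clearly lower hypoxic level, at 17.3, 257, 14.7 and 78.2 FPKM (D of -1.48). PGK1, LDHA and HK1 had a D of -0.65, -0.41 and -0.55, PKM of -0.33 and HK2 of -0.03. SLC2A3, a high-affinity glucose transporter, stood at the other end. It was at 1.07, 7.24, 0.126 and 4.47 FPKM and had a D of 1.69, a value that ranged from 0.29 to 2.29 over the settings tried because N-si was so low.

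Oxygen sensing had nearly the same median response in both states, 0.93 and 0.92 over 12 members, but single members differed. D was below 0 in 9 of 12 and under 0.5 in size in 6 of 12, against 55.7% and 68.3% of all genes. EGLN3, a prolyl hydroxylase that marks HIF for degradation, was at 2.62, 62.9, 5.68 and 57.9 FPKM (D of -1.21), and EGLN1, the principal one, at 8.99, 21.5, 15.3 and 24.5 FPKM (D of -0.57). For both the hypoxic levels lay close together and N-si lay above N-scr. MXI1, a MYC antagonist, went the other way at 7.93, 15.3, 3.29 and 17.2 FPKM (D of 1.41). CA9, the tumour carbonic anhydrase, was at 0.180, 7.82, 0 and 0.506 FPKM. Its hypoxic level was far lower after knockdown, and with N-si listed at 0 no fold is given for its TET1-si response. The other 4 measured members of the pH list had a D above 0, up to 0.61 for CA2, another carbonic anhydrase, and the list's median D was 0.27.

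Of the 16 stress brakes measured, 12 had a D below 0 and the median D was -0.50. Of their 9 induced members 2 were weakened and 3 kept, against 18.8% and 45% of all induced genes. NDRG1, a growth-inhibiting HIF target, was at 15.9, 497, 28 and 579 FPKM, 31.0-fold in scrambled and 20.6-fold in TET1-si cells (D of -0.59). YPEL3 was at 1.15, 22.7, 6.41 and 44.5 FPKM (D of -1.42), YPEL5 at 4.35, 27.5, 13.7 and 40 FPKM (D of -1.09) and YPEL2 at 0.897, 6.89, 0.545 and 4.60 FPKM (D of 0.06). DDIT4, an inhibitor of mTORC1, was at 119, 352, 48.9 and 233 FPKM (D of 0.69). BNIP3, a mitophagy receptor, reached 69.2 FPKM in H-scr and 70.1 in H-si from 11.5 and 25 in normoxia (D of -1.09). For NDRG1, YPEL3, YPEL5 and BNIP3 the hypoxic level in TET1-si cells was at or above that in scrambled cells.

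Collagen hydroxylases and demethylases had shares near those of all genes. Among 11 collagen hydroxylases and lysyl oxidases 8 had a D under 0.5 in size, against 68.3% of all genes, and none reached 1. The median was -0.18. P4HA1, a prolyl 4-hydroxylase subunit, was at 15.4, 47.6, 16.3 and 48.4 FPKM (D of -0.06). Of 17 JmjC histone demethylases 14 had a D under 0.5 in size. KDM3A, a histone H3 lysine demethylase, was at 21.9, 69.5, 35.9 and 89.1 FPKM (D of -0.35). VEGFA, the vessel growth factor, was at 80.2, 172, 77.9 and 136 FPKM (D of -0.30) and ADM, a vasodilator peptide, had a D of -0.03. EDN2, an endothelin, was higher at 1.34, 5.58, 2 and 17.0 FPKM (D of 1.05).

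Repressed functions fell into a kept and a deepened set. Nucleolar ribosome biogenesis was the clearest kept one, with a median response of -1.09 in scrambled and -1.06 in TET1-si cells over 30 members. All 18 of its repressed members were kept, 27 of 30 had a D under 0.5 in size, and D ran from -0.57 (MYC) to 0.53 (PES1). NOP56, a core protein of nucleolar particles, was at 456, 212, 372 and 142 FPKM (D of -0.29). Heat shock chaperones followed, with a median of -0.91 and -0.87 and 18 of 19 members under 0.5 in size. HSPD1, the mitochondrial chaperonin, was at 838, 320, 621 and 235 FPKM, that is 0.382 and 0.378 of normoxia (D of -0.01). D was also under 0.5 in size in 38 of 39 cytoplasmic ribosomal proteins, 36 of 38 subunits of mitochondrial complex I, 20 of 22 TCA cycle enzymes and 17 of 18 splicing factors and kinases, against 68.3% of all genes. These lists held no members classed as repressed, and their median responses lay between -0.45 and 0.10. Their small D is therefore not a kept repression. IDH2 was an exception among the TCA enzymes at 29.2, 68.9, 31.5 and 29.1 FPKM (D of -1.35).

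DNA replication had the most negative median D of the repressed lists. Its 39 members had a median response of -0.68 in scrambled and -2.09 in TET1-si cells and a median D of -1.45. D was below 0 in 39 of 39, at -1 or lower in 36, and 33 of 34 repressed members were strengthened. Hypoxia lowered 4 members at least 2-fold in the scrambled state and 38 after knockdown. CDC6 (chr17:38443885-38459171, hg19), which loads the replicative helicase, was at 92.8, 69.6, 92.0 and 14.9 FPKM. Its 1.33-fold loss in scrambled cells became 6.16-fold in TET1-si cells (D of -2.21, counting interval -2.31 to -2.12). MCM2, a subunit of that helicase, was at 137, 83.3, 100 and 16.9 FPKM (D of -1.84). E2F1, the transcription factor of the G1 to S transition, was at 33.7, 24.8, 34.8 and 8.45 FPKM (D of -1.59), and PCNA, the polymerase clamp, at 196, 125, 154 and 46.2 FPKM (D of -1.09). For all of these H-si was the low library and the normoxic levels lay near each other, with a median TET1-si effect on the list of 0.01 in normoxia and -1.44 in hypoxia. CCNE1, cyclin E, had the highest D at -0.76.

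Mitosis and repair were deepened less. Among 40 spindle and kinetochore genes the median response was -0.68 and -1.69 and the median D -0.93, with 40 of 40 below 0, 17 at -1 or lower, and 15 of 31 repressed members strengthened. SPC25, a kinetochore subunit, was at 37.9, 21.6, 39.8 and 6.56 FPKM (D of -1.78), PLK1, a mitotic kinase, at 153, 89.7, 146 and 52.1 FPKM (D of -0.72), and BUB3, a checkpoint protein, had the highest D at -0.56. The median D of 23 genes for homologous recombination and mismatch repair was -0.86, with 10 at -1 or lower. BRCA1, a recombination factor, was at 40.8, 25.6, 56.2 and 15.5 FPKM (D of -1.18). BARD1, the partner of BRCA1, was on the other side at 0.31, as was the mismatch repair gene PMS2 at 0.29. Purine synthesis had a median D of -0.48 over 17 members, and its PAICS was listed at 0 in H-scr against 176 FPKM in N-scr, so no fold is given for it.

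Few lists had a median D above 0. Of 14 replication-dependent histone genes that passed, 13 had a D above 0 and 4 of 1 or higher, against 3.83% of all genes, and the median response went from 0.67 to 1.32. The counting interval lay above 0 in 3 of the 14, and 2 of the 8 induced members were strengthened. These were poly(A) libraries, so the values cover only the polyadenylated transcripts of these histone genes. HIST1H2AC was at 10.2, 31.1, 4.68 and 29.6 FPKM (D of 1.03), and HIST1H2BG at 5.28, 4.58, 1.23 and 2.88 FPKM (D of 1.36), lower in hypoxia in scrambled cells and higher in TET1-si cells. Their normoxic levels were lower in TET1-si cells, with a median effect of -1.05, and 6 of the 20 genes written in the list had a mean under 1 FPKM. Among 24 epithelial junction genes the median D was 0.13. DSC3, a desmosomal cadherin, was at 40.3, 38.6, 23.1 and 45.0 FPKM (D of 1.02) and TJP3, a tight junction scaffold, at 2.07, 7.15, 2.40 and 20.3 FPKM (D of 1.29).

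Genes of the epithelial to mesenchymal transition, the change in cell state that the study followed, had no common difference. CDH1 (E-cadherin) was at 179, 292, 267 and 399 FPKM (D of -0.12), JUP (plakoglobin) at 83.7, 138, 119 and 166 FPKM (D of -0.24) and CDH2 (N-cadherin) at 10.8, 4.39, 22.9 and 7.72 FPKM (D of -0.28). TWIST1, a transcription factor of the transition, had a D of 0.55 with a counting interval of -0.09 to 1.2. Over 18 mesenchymal genes the median D was -0.23, with 3 at -1 or lower. These were MMP1, a collagenase, at 9.07, 26.7, 26.6 and 18.1 FPKM (D of -2.10), FN1, fibronectin, at 12.5, 19.0, 4.24 and 2.32 FPKM (D of -1.45), and COL1A1 at 5.29, 28.6, 14 and 37.0 FPKM (D of -1.01). WDR5, a subunit of histone H3 lysine methyltransferases, was at 89.2, 55.7, 77.2 and 38.9 FPKM (D of -0.31).

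Single genes were named by rank within each class, among protein-coding genes with a mean of at least 5 FPKM and above 0 in all 4 libraries. Beside ACSS2, ACAT2 and MX2, the most weakened induced genes were TUBA1A, RARRES1 and LGALS9. TUBA1A, an alpha-tubulin, was at 4.95, 43.3, 4.21 and 3.31 FPKM (D of -3.44), so that H-scr stood alone. RARRES1, a retinoid-induced gene, was at 1.02, 8.21, 18.3 and 13.8 FPKM (D of -3.30) and was already above H-scr in N-si. LGALS9, galectin-9, was at 1.47, 19.6, 4.21 and 5.90 FPKM (D of -3.17).

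The strengthened induced genes led with ALPP, placental alkaline phosphatase, at 0.502, 0.956, 1.959 and 21.8 FPKM (D of 2.60). TRPV6, an epithelial calcium channel, was at 10.7, 11.8, 6.12 and 30.4 FPKM, a 1.1-fold rise against 4.91-fold (D of 2.15). HIST3H2BB, TNNT3, ATP6V1B1 and CEL followed with a D between 1.62 and 1.76, and the counting interval of TNNT3 ran from 0.35 to 3.98. The levels of TRPV6 and ALPP in H-si were the highest of their 4 libraries.

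Among repressed genes MICB, a stress ligand for natural killer cells, had the deepest change at 63.7, 68.5, 122 and 15.6 FPKM, 1.08-fold higher in hypoxia in the scrambled state and 7.83-fold lower after knockdown (D of -3.07). PCOLCE2, CENPI, RAB28 and DTL had a D between -2.43 and -2.04, together with CDC6. CENPI, of the kinetochore, and DTL, which targets replication factors for degradation, belong to the same functions as the lists above. Among these genes 2 had a weakened repression, AC005280.1 at 7.75, 1.23, 8.73 and 7.88 FPKM (D of 2.41) and CDKL1, a kinase, at 6.61, 1.84, 11.4 and 9.46 FPKM (D of 1.53).

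The kept induced genes had a median response of 1.34 in scrambled and 1.34 in TET1-si cells. For the weakened ones these medians were 2.43 and 0.84. The rule of the classes sets this order, so it does not show that strongly induced genes were the weakened ones. CALCOCO1, an autophagy receptor, was at 5.40, 42.9, 7.04 and 56.2 FPKM, 7.83-fold in scrambled and 7.89-fold in TET1-si cells (D of 0.01, counting interval -0.15 to 0.16). CLEC7A, S100A4, FOLR1, IZUMO4 and MYO15B were induced at least 6.84-fold in both states with a D between -0.40 and 0.35. The counting interval reached past 1 in size for CLEC7A (-1.19 to -0.02), S100A4 (-0.76 to 1.53) and IZUMO4 (-1.19 to 0.79). On the repressed side ODC1, the first enzyme of polyamine synthesis, was at 89.4, 17.6, 63.5 and 10.7 FPKM (D of -0.21). GAL, IL1RL1, HAS3, PYCR1 and RRS1 were lowered at least 3.29-fold in both states, with a D between -0.43 and 0.49. CLEC7A and FOLR1 were higher in TET1-si cells under both conditions, at 0.530, 7.72, 4.22 and 40.4 FPKM and at 0.119, 1.77, 1.75 and 17.3 FPKM. Their D depended on the pseudocount. For FOLR1, with about 2 reads in N-scr and no counting interval, it was 1.42 with a pseudocount of 1, no longer kept, and -0.49 with 0.01. For CLEC7A it went from -0.40 to 0.48 with a pseudocount of 1.

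The response had opposite signs in the 2 states, with at least 2-fold in each, in 52 genes (0.357%). In 30 (0.206%) hypoxia raised the gene in scrambled and lowered it in TET1-si cells, and in 22 (0.151%) the reverse was seen. Among the 9457 protein-coding genes with a mean of at least 5 FPKM and above 0 in every library, these numbers were 11 and 1. OAS3, the largest enzyme of its family, was at 32.0, 100, 31.1 and 14.6 FPKM (D of -2.73, counting interval -2.83 to -2.65). TMEM97, a sterol-regulated membrane protein, was at 46.4, 113, 17.8 and 5.37 FPKM (D of -2.99). The only one of these that went from repression to induction was RAB3IL1, an exchange factor for Rab proteins, at 17.1, 7.31, 1.17 and 5.58 FPKM (D of 3.38).

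Promoter motifs were counted on both strands in RefSeq promoters of 300 bases, found for 9674 of the 11901 protein-coding genes. The share with a HIF core (ACGTG or GCGTG) was 51.4% for 144 weakened, 51.6% for 397 kept and 44.8% for 87 strengthened induced genes, against 63.8% of the protein-coding genes and 48.4% of all 27305 promoters. The interferon element was in 12.5% of weakened, 3.53% of kept and 1.15% of strengthened induced promoters, against 2.79%. The E2F forms (TTTCCCGC or TTTGGCGC) were in 35 of 150 promoters of strengthened repressed genes (23.3%) and 11 of 222 of kept repressed genes (4.95%), against 3.8%. The cell cycle element TTTGAA was in 28.7% and 10.4% of them, against 9.42%. The sterol element (CACNCCAC) was in 9.03% of weakened and 9.07% of kept induced promoters, against 5.62%, so its share was the same in both.

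Within the lists, 20 of 35 interferon promoters (57.1%) held the interferon element, 17 of 34 replication promoters (50%) an E2F form and 24 of 33 mitotic promoters (72.7%) the element TTTGAA. Only 1 of 15 cholesterol enzyme promoters (6.67%) held the sterol element. A HIF core was in 17 of 25 glycolysis promoters (68%), near the 63.8% of protein-coding genes. In the other lists counted this share ran from 42.9% (interferon) to 87% (nucleolar), with 80% for cholesterol enzymes. The printed HIF cores of PGK1, EGLN1 and CA9 belong to genes with a D of -0.65, -0.57 and -2.22. CA9 was not detected in N-si, so its value rests on the pseudocount. The printed interferon elements belong to OAS3, MX1 and IFITM1, with a D of -2.73, -2.20 and -1.95. A match in these letters is a description and no evidence of binding.

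Median D differed little between chromosomes. Over 23 of them the median D of protein-coding genes ran from -0.136 to -0.00338, with an SD of 0.0309. The median effect of TET1-si on the level of whole chromosomes was wider, from -0.258 to 0.768 in normoxia (SD 0.195) and from -0.320 to 0.688 in hypoxia (SD 0.186). These blocks of chromosome-wide difference between the knockdown states had a similar range in both oxygen conditions, and the range of D was narrower.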

How the data were processed

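The labels described poly(A) RNA-Seq libraries read as 100 bp single ends, while the methods gave paired ends. The authors aligned the reads to hg19 with TopHat, and the deposited values are gene FPKM from Cufflinks with Ensembl annotation (versions not given in the sources used here). No counts were used. Each library was 1 group, with 0 columns left without a sample. Responses and D were computed on log2(FPKM + 0.1) in Python 3.11.15 with pandas 2.3.3 and NumPy 2.4.6, and figures drawn with matplotlib 3.10.9. The script was tested on simulated data. FPKM of 4396 1-exon genes came out as whole reads (within 0.05) in 96.9% to 97.7% of low values and gave the depth. Approximate reads of a gene followed from its annotated length less 213 bp and set the 95% counting interval (normal approximation, no pseudocount, counting error only). The 111 gene IDs on several rows (232 rows, HIF1A among them) were left out. Where a list symbol had 2 IDs, the ID of higher mean FPKM was used. Named genes were the 6 of largest D (kept classes: largest average response) in each class (protein-coding, mean of at least 5 FPKM, above 0 in every library), the ends of each list with up to 3 central members, and genes named by the study; any further gene was picked with its values known. The members and lists were chosen with earlier results of these data known. Alternatives changed the pseudocount, filters, scaling, threshold and choice of responsive genes. Some members of the lists are not reported here.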

Additional observations from a re-analysis of the deposited data

Results flagged for a closer look

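In 6 genes of the naming rule hypoxia moved the level at least 2-fold in opposite directions in scrambled and TET1-si cells. Each direction rests on 1 pair of libraries and the difference was not tested. RAB3IL1 was lowered in scrambled and raised in TET1-si cells, with a D of 3.38. The other 5 were raised in scrambled and lowered in TET1-si cells. SAA1, an acute-phase protein, had a D of -3.14 at 4.12, 16.2, 13.1 and 5.64 FPKM in N-scr, H-scr, N-si and H-si, and LTB, lymphotoxin beta, had a D of -3.13 at 11.6, 26.0, 2.03 and 0.446 FPKM. D was -2.99 for TMEM97, -2.88 for MMP10, a stromelysin at 9.16, 32.4, 7.82 and 3.68 FPKM, and -2.73 for OAS3. The counting interval of LTB was the widest of these, from -4.57 to -2.15.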

How the results depend on the processing

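No paired analysis was possible because each group has 1 library and the labels give no replicate numbers, and no library could be left out. The median D of the cholesterol, fatty acid, interferon, replication, mitotic, repair, MAPK and histone lists kept its sign under every alternative tried, and the interferon median moved the most of these, between -1.50 and -1.21. Values near 0 changed sign. With upper-quartile scaling the median D of all genes was 0.013, of nucleolar genes 0.031 and of the unfolded protein response 0.00027, and with median-of-ratios scaling the nucleolar median was 0.0028. With a pseudocount of 1, D was 0.48 for CLEC7A, 0.39 for IZUMO4 and 0.06 for MYO15B, and with 0.01 it was -0.49 for FOLR1. The NF-kB median moved to -0.79 with a mean of at least 5 FPKM. Counts depended on the settings. They are given here in the order D of -1 or lower, D of 1 or higher, induced weakened, induced kept, induced strengthened, repressed weakened and crossed. With a pseudocount of 1 they were 637, 302, 145, 491, 84, 6 and 18. A mean of at least 5 FPKM gave 520, 145, 133, 373, 47, 5 and 13. Without a filter on expression they were 3253, 3039, 733, 1291, 716, 150 and 399, with 386 repressed genes strengthened. Without the filter on locus length 78 repressed genes were weakened and 87 crossed. Among protein-coding genes alone 318 had a D of 1 or higher, 113 induced genes were strengthened, 10 repressed genes weakened and 26 crossed. Rescaling to TPM left 196 repressed genes kept. At a 1.5-fold threshold D was lower in 2341 and higher in 1474, and 472 induced genes were weakened, 336 strengthened, 41 repressed genes weakened, 384 strengthened and 167 crossed. Choosing genes by the scrambled response gave 527 induced weakened, 59 strengthened, 90 repressed weakened and 31 strengthened, and by the TET1-si response 125, 360, 3 and 376, so the balance of weakened to strengthened genes turned with this choice. The cause of these moves was not tested beyond the number of genes that each setting adds or removes. Of all genes past 2-fold, 64.8% had a negative D, 78.2% with a mean of at least 5 FPKM, 51.7% with no expression filter and 57.6% with upper-quartile scaling. Genes with few reads set the limit: D of single low genes such as SLC2A3, FOLR1 and TNNT3 moved by over 1 across the settings tried.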

Other observations

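Other functions in the lists showed small or mixed differences. In the circadian clock, 4 of 15 members had a D of -1 or lower around a median of -0.18. PER3, a period gene, was at 1.39, 5.96, 2.02 and 2.04 FPKM in N-scr, H-scr, N-si and H-si (D of -2.02), and ARNTL, the positive limb of the clock, at 7.27, 21.2, 12.2 and 13.5 FPKM (D of -1.38), while DBP, an output gene, had a D of 0.78. Both PER3 and ARNTL were high in H-scr alone. Among 15 G1 cyclins and CDK inhibitors the median D was -0.47. CDKN2B was at 3.66, 17.4, 14.7 and 28.8 FPKM (D of -1.25) and CDKN1A at 8.22, 25.6, 9.35 and 18.9 FPKM (D of -0.62).

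In the BCL2 family the pro-apoptotic BIK (10.1, 35.9, 28.3 and 39.2 FPKM) and BBC3 (0.848, 4.90, 1.29 and 3.41 FPKM) had a D of -1.36 and -1.06, in a list of 13 with a median of -0.40. The unfolded protein response differed little, with a median D of -0.07 and 19 of 22 members under 0.5 in size, but it held no members classed as induced or repressed. The integrated stress response and the NRF2 targets had a median of -0.43 and -0.47, with ATF3 at -1.56 and HMOX1 at -1.17. Of 4 metallothioneins that passed, 3 were repressed in both states, among them MT2A at 995, 465, 713 and 240 FPKM (D of -0.47). Iron handling had a median D of -0.17 over 12 members. In 15 keratinocyte differentiation genes the median D was 0.07, from S100A9 at -1.75 among genes above 0 in every library to SCEL at 1.57, with SPRR1A listed at 0 in N-scr.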
